A study of Mus musculus with 2 samples.

Results

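The 34 genes described here carry glucose through glycolysis, the pentose phosphate pathway and glycogen, and they were taken by name from the 27998 gene rows of a single-cell RNA sequencing study of mouse spleen. The cells had been sorted for CD11b and Gr1, a pair of surface markers found on neutrophils and on many monocytes, and were profiled with a droplet method that counts the 3′ ends of polyadenylated transcripts. The PYMT library pooled the spleens of 3 tumour-bearing mice, whose strain is given only as PYMT, the usual short form of polyoma middle T, an oncogene used to induce mammary tumours. Spleens of 5 control FVB/n mice went into the Wild Type library. Neither the promoter of a transgene nor the age or sex of the animals is given in the sources used here. With 1 library per condition there are no replicates, and no test was run. Each difference below sets 1 library against the other, and the 95% intervals hold counting error alone. A pool mixes its mice, so spread between animals cannot be seen.

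Glycolysis splits a glucose molecule into pyruvate with a net gain of ATP, and neutrophils, which have few active mitochondria, are known to draw most of their ATP from it and to release the pyruvate as lactate. The pentose phosphate pathway branches off at glucose 6-phosphate. Its oxidative arm yields the NADPH that feeds the oxidative burst, and its non-oxidative arm returns sugars to glycolysis. Glycogen, which neutrophils store and spend when glucose is scarce, is built by Gys1 and Gbe1 and broken down by Pygl. Several of these genes are known targets of the hypoxia-inducible factors, which bind the core letters ACGTG or GCGTG.

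Because those factors are one known regulator of the pathway, both cores were searched in RefSeq promoter windows (GRCm38.p6, 250 bases before to 50 after a start), on both strands. A window existed for 33 of the 34 genes. Of these, 27 (81.8%) held at least 1 core in at least 1 window, against 46.7% of the 27025 genes with a window. ACGTG was in 17 of the 33 genes and in 21.8% of all genes, and GCGTG was in 21 and in 35.2%. Of the 33 genes, 9 have more than 1 window, which gives them more chances of a match. Both cores hold the letters CG, and the 27025 genes were not matched to the 33 for base composition or number of windows. The part of either in these shares was not tested. Shown are the windows of the glucose importer Slc2a1 and the lactate exporter Slc16a3, which were higher in PYMT neutrophils, and of Hk2 and Rpia, which were lower. Capitals mark the cores as read on the printed strand, where CACGT is ACGTG and CACGC is GCGTG of the other strand. The windows lie at chr4:119108495-119108794 (plus strand), chr11:120948817-120949116 (plus), chr6:82774405-82774704 (minus) and chr6:70792126-70792425 (minus), in that order, and cover a RefSeq start and the bases before it. For Slc16a3 the window lies inside the gene as placed by GENCODE M21, which begins further upstream, at chr11:120948480.
Slc2a1: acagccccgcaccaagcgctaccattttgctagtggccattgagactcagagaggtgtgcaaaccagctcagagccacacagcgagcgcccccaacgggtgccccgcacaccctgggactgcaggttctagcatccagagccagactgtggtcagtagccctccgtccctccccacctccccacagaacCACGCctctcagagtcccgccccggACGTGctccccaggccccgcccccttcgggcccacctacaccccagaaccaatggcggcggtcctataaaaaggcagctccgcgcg
Slc16a3: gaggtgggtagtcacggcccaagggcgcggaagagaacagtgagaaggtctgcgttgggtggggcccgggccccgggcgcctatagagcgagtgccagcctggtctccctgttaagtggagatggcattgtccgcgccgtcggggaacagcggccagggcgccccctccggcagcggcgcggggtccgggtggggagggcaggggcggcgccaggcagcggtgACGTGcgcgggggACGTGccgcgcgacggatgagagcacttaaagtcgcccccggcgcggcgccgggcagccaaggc
Hk2: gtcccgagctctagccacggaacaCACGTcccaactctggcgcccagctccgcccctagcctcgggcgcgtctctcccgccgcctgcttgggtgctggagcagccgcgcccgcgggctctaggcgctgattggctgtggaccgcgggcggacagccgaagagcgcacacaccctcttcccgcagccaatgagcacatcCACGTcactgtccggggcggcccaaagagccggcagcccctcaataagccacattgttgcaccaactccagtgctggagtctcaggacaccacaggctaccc
Rpia: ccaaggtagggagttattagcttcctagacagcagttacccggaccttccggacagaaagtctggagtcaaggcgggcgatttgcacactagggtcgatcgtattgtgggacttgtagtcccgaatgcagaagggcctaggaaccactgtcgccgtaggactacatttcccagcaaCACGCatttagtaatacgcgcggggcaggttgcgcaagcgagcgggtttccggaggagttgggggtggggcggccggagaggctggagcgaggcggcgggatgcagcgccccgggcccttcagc
Cores were thus found in windows of genes that were higher and of genes that were lower. A match is a description of letters and says nothing on binding.

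Cells were placed in classes by their transcripts. A neutrophil had at least 10% of its UMIs (unique molecular identifiers, each 1 captured transcript) from S100a8 and S100a9 and fewer than 2 from Cd79a and Cd79b. A monocyte had under 5% and at least 2 UMIs of Csf1r and Ccr2, and a B cell had under 5% and at least 3 of Cd79a and Cd79b. Neutrophils were split by the share of Camp, a secondary granule gene that developing neutrophils make and mature ones lose. The PYMT library gave 5488 neutrophils, 1597 monocytes and 1152 B cells among 9150 cells. The Wild Type library gave 3980, 601 and 375 among 5491. Neutrophils with under 1% Camp were 22.5% of PYMT cells and 1.02% of Wild Type cells, 2057 against 56 cells, and those with at least 4% Camp were 17.7% against 62.9%. All 12 neutrophil markers were detected in the neutrophils, all 13 monocyte markers in the monocytes and all 10 B cell markers in the B cells of both libraries. Median depth in neutrophils was 8285 UMIs per cell in PYMT and 5630 in Wild Type. The libraries share 72 cell barcodes. In PYMT 31 neutrophils lay at 10 to 12% of the S100a8 and S100a9 share and 78 unclassed cells at 8 to 10%, and in Wild Type 37 and 41. Cells in both the monocyte and the B cell class numbered 71 in each library, which is 71 of 1152 PYMT and 71 of 375 Wild Type B cells.

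The 34 genes together took 1.03% of the UMIs of PYMT neutrophils and 0.834% of those of Wild Type neutrophils. In monocytes they took 0.711% in PYMT and 0.490% in Wild Type, and in B cells 0.377% in PYMT and 0.333% in Wild Type. The order of the classes was the same in both libraries. The median cell followed the sums, at 1.03% in PYMT and 0.832% in Wild Type neutrophils, and the quartiles of monocytes were 0.599 and 0.794% in PYMT and 0.390 and 0.557% in Wild Type, without overlap.

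**Figure D1:**
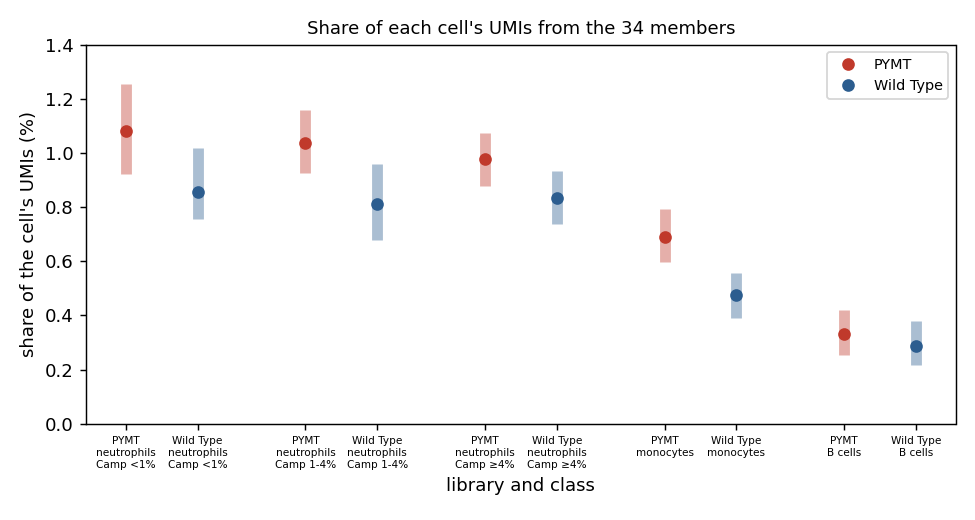
Share of each cell's UMIs (%) that came from the 34 genes, by class and library; points are medians over cells and bars span the first to the third quartile. In each class the PYMT median lies above the Wild Type one, and the bars of the monocytes do not overlap.

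In neutrophils, 32 of the 34 genes had at least 50 UMIs in sum and were compared as CPM, the UMIs of a gene scaled to the class total. In PYMT 7 were at least 1.5-fold higher (log2 of 0.58), namely Slc2a1, Aldoc, Slc16a3, G6pdx, Pfkl, Pkm and Pfkfb4, where 7.11% of 9927 genes were. Another 7 were at least 1.5-fold lower, Ldhb, Rpia, H6pd, Hk2, Gbe1, Gys1 and Pgls, where 42.6% of all genes were. The median of the 32 genes was 0.25 and that of all genes −0.47, and 24 of the 32 lay above the all-gene median. Other scalings move every neutrophil value: the median of ratios moves all log2 ratios up by 0.47 and the trimmed mean of M-values by 0.45. Under either scaling 20 of the 32 were higher and 4 lower. Of all genes, 17.2% were higher and 17.6% lower under the median of ratios. The 7 higher genes and Ldhb, Rpia, H6pd and Hk2 among the lower ones stayed past the threshold under each of the 4 other scalings tried. Pfkm had 8 UMIs in PYMT and 7 in Wild Type neutrophils, and the lactate carrier Slc16a1 had 7 and 5. Both were under 50 UMIs in every class. In monocytes Pfkm had 22 UMIs in PYMT and 5 in Wild Type, and Slc16a1 had 19 and 0.

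**Figure D2:**
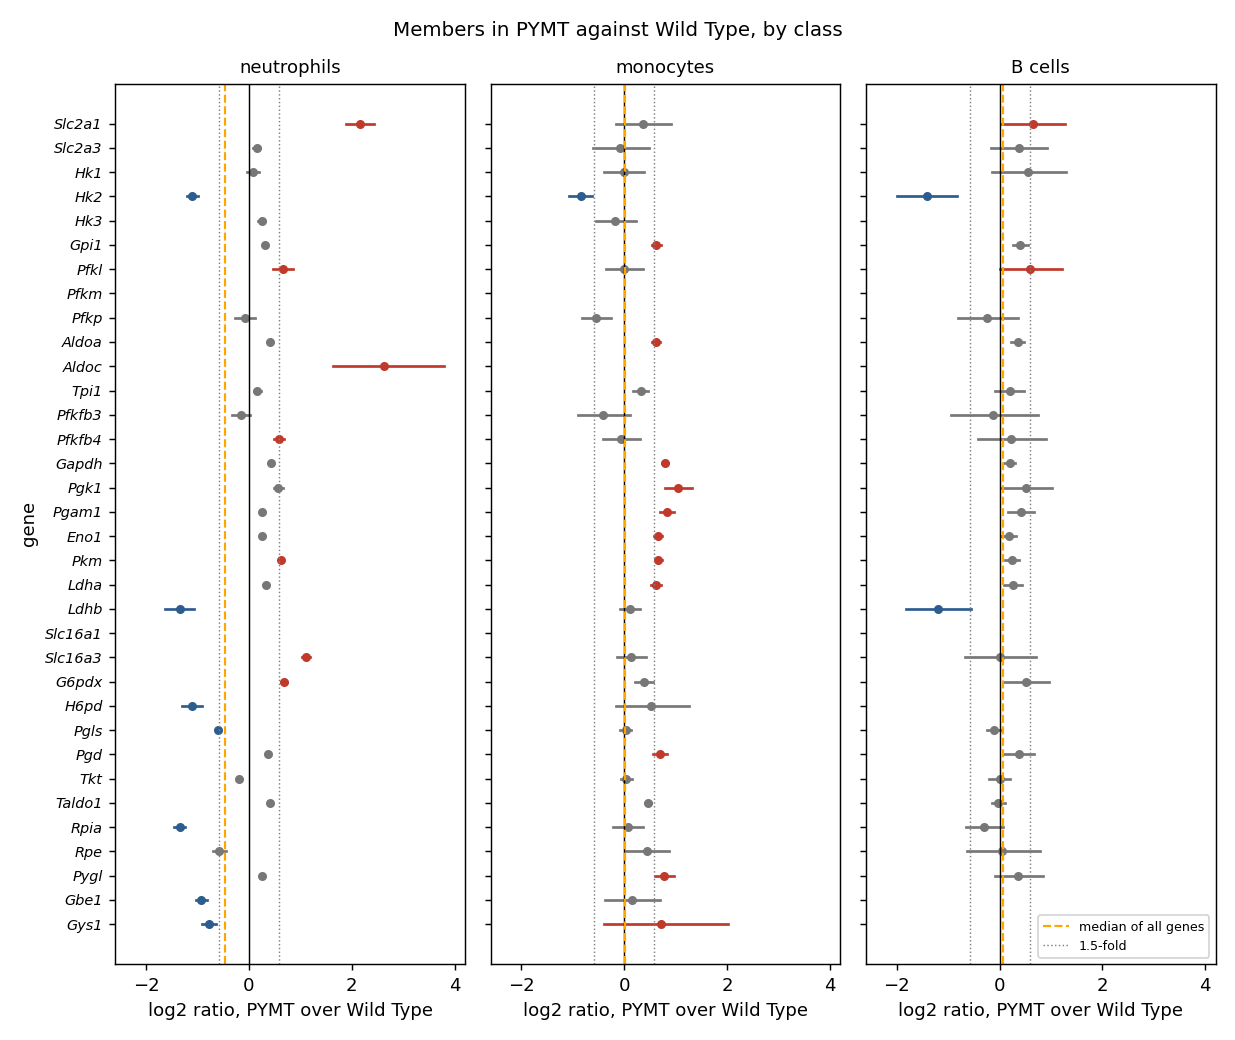
Log2 ratio of PYMT over Wild Type for each gene (rows) in neutrophils, monocytes and B cells; points are ratios of CPM, bars are exact 95% counting intervals, red and blue mark ratios past 1.5-fold, and genes under 50 UMIs are left blank. In neutrophils the dashed median of all genes lies at −0.47 and most points lie to its right, and in monocytes all 5 genes from Gapdh to Pkm lie past 1.5-fold.

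Glucose enters through facilitative transporters. Slc2a1 (GLUT1, ENSMUSG00000028645 in GENCODE M21, chr4:119108711-119137983) had 19.1 CPM in PYMT and 4.28 CPM in Wild Type neutrophils, a log2 ratio of 2.16 (1.89 to 2.44). Slc2a3 (GLUT3), a high-affinity transporter, had 119 CPM in PYMT and 108 CPM in Wild Type, a log2 ratio of 0.15. Slc2a1 thus supplied 13.8% of the UMIs of this pair in PYMT and 3.83% in Wild Type neutrophils. With every cell thinned to 1000 UMIs, 2.53% of PYMT and 0.327% of Wild Type neutrophils held a Slc2a1 UMI, and unthinned 15.0% and 3.12% did. The myeloid gene Hk3, looked at as a sign of free RNA, was found in 1.13% of thinned PYMT and 0.80% of thinned Wild Type B cells. Median depths there were 3506.5 and 4003 UMIs. That class also held 71 cells of each library that were in the monocyte class too. Monocytes had 17.4 CPM of Hk3 in PYMT and 19.6 CPM in Wild Type, so these shares need not be free RNA. Hk3 had more UMIs in neutrophils than Slc2a1, so its share in B cells is no floor for Slc2a1, and the part of free RNA in the Slc2a1 shares was not tested. Outside neutrophils Slc2a1 differed less, with 12.9 CPM in PYMT and 10.1 CPM in Wild Type monocytes (0.36, interval −0.15 to 0.91) and 24.6 CPM in PYMT and 15.8 CPM in Wild Type B cells (0.64, interval 0.05 to 1.27). The difference between classes was not tested.

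Hexokinases trap glucose as glucose 6-phosphate. Hk2, the inducible isozyme (chr6:82725025-82774454, minus strand), had 26.2 CPM in PYMT and 56.1 CPM in Wild Type neutrophils, a log2 ratio of −1.10 from 1264 and 1706 UMIs. It was also lower in PYMT monocytes, with 37.9 CPM in PYMT and 68.2 CPM in Wild Type (−0.85, interval −1.07 to −0.62), and in B cells, with 10.5 CPM in PYMT and 27.9 CPM in Wild Type (−1.41, interval −1.99 to −0.83). Of the 34 genes, Hk2 alone was past the threshold in the same direction in neutrophils, monocytes and B cells. Its log2 ratio in neutrophils ran from −1.23 to −0.63 over all alternatives tried. Hk3, the isozyme typical of myeloid cells, had 119 CPM in PYMT and 100 CPM in Wild Type neutrophils (0.25), and Hk1, the broadly expressed one, had 29.3 and 27.8 CPM (0.08). Of hexokinase UMIs, Hk2 made up 15.0% in PYMT and 30.5% in Wild Type neutrophils, and 51.2% in PYMT and 63.9% in Wild Type monocytes. Summed, the 3 hexokinases came to 175 CPM in PYMT and 184 CPM in Wild Type neutrophils, so the isozymes differed more than their total.

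**Figure D3:**
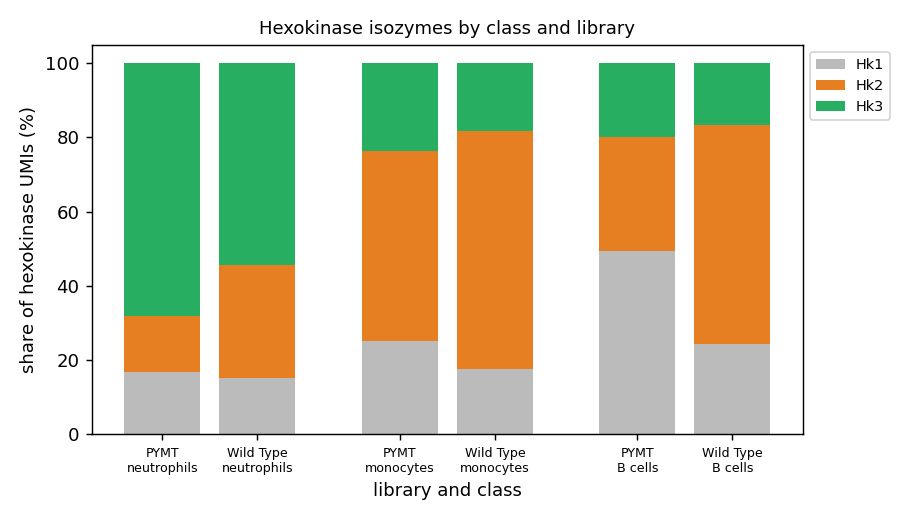
Share (%) of hexokinase UMIs from Hk1, Hk2 and Hk3 in neutrophils, monocytes and B cells of each library, as stacked bars that sum to the whole. The Hk2 part is smaller in PYMT than in Wild Type in each class, at 15.0% against 30.5% in neutrophils.

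The upper steps turn glucose 6-phosphate into triose phosphates. Gpi1, the isomerase at the first of them, had 870 CPM in PYMT and 703 CPM in Wild Type neutrophils (0.31), and Aldoa, the main aldolase, had 834 and 624 CPM (0.42). Pfkl, the liver-type phosphofructokinase at the committing step, had 15.3 CPM in PYMT and 9.64 CPM in Wild Type (0.66, interval 0.47 to 0.86), while Pfkp, the platelet type, had 10.9 and 11.5 CPM (−0.08). Aldoc, a minor aldolase, had 88 UMIs in PYMT and 9 in Wild Type neutrophils (2.62, interval 1.63 to 3.80). Tpi1, which interconverts the trioses, had 90.0 and 80.3 CPM (0.17). Pfkfb3 and Pfkfb4 set the level of fructose 2,6-bisphosphate, which activates phosphofructokinase. Pfkfb4 had 54.0 CPM in PYMT and 36.0 CPM in Wild Type (0.59, interval 0.48 to 0.69) and Pfkfb3 had 626 and 438 UMIs (−0.15). The signs of Pfkp, Pfkfb3 and Tkt turned positive under some of the other scalings.

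Of the 5 enzymes of lower glycolysis, which yield ATP and pyruvate, 1 passed 1.5-fold in neutrophils and all 5 in monocytes when scaled to the class total. That contrast depends on the scaling: under the median of ratios all 5 also passed in neutrophils, with Pkm at 1.10, Pgk1 at 1.05, Gapdh at 0.90, Eno1 at 0.73 and Pgam1 at 0.72. In neutrophils Gapdh, which makes NADH, had 2044 CPM in PYMT and 1514 CPM in Wild Type (0.43), and Pkm, the pyruvate kinase, had 1279 and 827 CPM (0.63, interval 0.61 to 0.65). Pgk1, the first ATP-forming enzyme, had 69.4 and 46.6 CPM (0.57), just under the threshold, Pgam1, the mutase, 348 and 292 CPM (0.25), and Eno1, the enolase, 538 and 448 CPM (0.26). In monocytes Pgk1 had 72.1 CPM in PYMT and 34.9 CPM in Wild Type (1.05, interval 0.79 to 1.32), and Gapdh had 1219 and 701 CPM (0.80, interval 0.74 to 0.86). Pgam1 had 232 and 130 CPM (0.83), Pkm 863 and 544 CPM (0.67), and Eno1 670 and 425 CPM (0.66). Their sum was 3056 CPM in PYMT and 1835 CPM in Wild Type monocytes, and 4277 CPM in PYMT and 3128 CPM in Wild Type neutrophils. Near-identical copies of several of these genes exist in the mouse genome, and the sources used here do not give how reads shared with them were counted, so these values are uncertain to that extent. A close copy of Eno1 with its own row, Eno1b, had 26.8 CPM in PYMT and 16.3 CPM in Wild Type neutrophils.

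Lactate dehydrogenase turns pyruvate into lactate, and Slc16a3 (MCT4, chr11:120948480-120960868) exports it. Slc16a3 had 125 CPM in PYMT and 57.8 CPM in Wild Type neutrophils, a log2 ratio of 1.12 (1.04 to 1.19), against 36.3 and 33.1 CPM in monocytes (0.14). Ldha, the subunit that favours lactate, had 568 CPM in PYMT and 452 CPM in Wild Type neutrophils (0.33), and 388 and 254 CPM in monocytes (0.61). Ldhb, the subunit that favours pyruvate, had 3.62 CPM in PYMT and 9.21 CPM in Wild Type neutrophils (−1.35, interval −1.63 to −1.07). In monocytes it had 73.5 and 68.2 CPM (0.11). Neutrophils that also held at least 2 UMIs of Csf1r and Ccr2 were 5.47% of the class in PYMT and 9.90% in Wild Type. Without them the log2 ratio of Ldhb was −0.80. Ldhb was 15.9% of lactate dehydrogenase UMIs in PYMT and 21.2% in Wild Type monocytes.

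In the oxidative pentose phosphate arm, G6pdx, its rate-setting enzyme (chrX:74409483-74429194, minus strand), had 239 CPM in PYMT and 149 CPM in Wild Type neutrophils, a log2 ratio of 0.68 (0.63 to 0.73). Pgd, the second NADPH-forming enzyme, had 585 and 452 CPM (0.37). Pgls, the lactonase between them, went the other way with 161 CPM in PYMT and 244 CPM in Wild Type (−0.60). So did H6pd, the enzyme of the endoplasmic reticulum, with 8.36 and 18.0 CPM (−1.11). The Pgls value lay near the all-gene median of −0.47 and was −0.13 under the median of ratios. Within Camp classes Pgls stood at −0.39 at 4% Camp or more, −0.36 at 1 to 4% and 0.15 under 1%. Of the non-oxidative arm, Tkt, the transketolase, had 808 CPM in PYMT and 923 CPM in Wild Type (−0.19), and Taldo1, the transaldolase, had 933 and 697 CPM (0.42). Rpia, the ribose 5-phosphate isomerase, had 24.6 CPM in PYMT and 62.4 CPM in Wild Type (−1.34, interval −1.45 to −1.24), and Rpe, the epimerase, had 21.5 and 32.0 CPM (−0.57). In monocytes Pgd had 215 CPM in PYMT and 133 CPM in Wild Type (0.70), while Rpia had 35.4 and 33.6 CPM (0.07), Pgls 255 and 250 CPM (0.03) and Tkt 254 and 248 CPM (0.04).

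Of the glycogen enzymes in neutrophils, the 2 that build it were lower in PYMT and the one that breaks it down was not. Gbe1, the branching enzyme, had 25.6 CPM in PYMT and 48.5 CPM in Wild Type (−0.92), and Gys1, the synthase, had 17.2 and 29.5 CPM (−0.78). Relative to the all-gene median neither is 1.5-fold lower, and under the median of ratios neither passed. Within Camp classes Gys1 stood at −0.35 at 4% Camp or more, 0.14 at 1 to 4% and −1.80 under 1%. Gbe1 stood at −0.67, −0.46 and −1.45 in the same order. The values under 1% Camp rest on 4 Gys1 and 8 Gbe1 UMIs in Wild Type. Pygl, the phosphorylase, had 319 CPM in PYMT and 267 CPM in Wild Type neutrophils (0.26), and 117 and 67.9 CPM in monocytes (0.78, interval 0.59 to 0.98). Gys1 in monocytes rested on 42 and 8 UMIs (0.71, interval −0.40 to 2.01), and stood at −0.67 with cells thinned to 1000 UMIs.

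Because the libraries differ in their mix of Camp classes, the genes were set side by side within each Camp class. This does not match the libraries for Camp: at least 6% Camp was held by 185 PYMT and 2629 Wild Type neutrophils. Median depth at 4% Camp or more was 11556 UMIs per cell in PYMT and 5756.5 in Wild Type. The part of either in the values below was not tested. In neutrophils with at least 4% Camp, 1619 PYMT and 3456 Wild Type cells, 5 of 31 genes were higher (background 3.21%) and 5 lower (41.1%), with an all-gene median of −0.45. Under the median of ratios 17 were higher and 2 lower. Slc2a1 had 8.27 CPM in PYMT and 3.44 CPM in Wild Type there (1.27, interval 0.89 to 1.65), G6pdx 234 and 150 CPM (0.64), Pgk1 72.1 and 47.1 CPM (0.61), Pfkl 15.3 and 10.0 CPM (0.61) and Slc16a3 82.7 and 54.9 CPM (0.59). Those lower were Ldhb (−1.69), Rpia (−1.15), Hk2 (−0.84), H6pd (−0.77) and Gbe1 (−0.67), of which Hk2 (−0.38), H6pd (−0.32) and Gbe1 (−0.21) did not pass under the median of ratios. Without neutrophils that held monocyte UMIs, Slc16a3 stood at 0.54 and Ldhb at −0.78. Taldo1, with 661 CPM in PYMT and 672 CPM in Wild Type (−0.02), and Pfkfb4, with 39.8 and 34.8 CPM (0.19), were closer within this class than over all neutrophils. Cycling cells were 17.2% of this class in PYMT and 14.6% in Wild Type. Without them 4 genes were higher (4.28% of all genes) and 5 lower (29.3%).

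Neutrophils with 1 to 4% Camp numbered 1812 in PYMT and 468 in Wild Type. Under the median of ratios 22 of 31 genes were higher (18.9% of all genes) and 2 lower (21.9%). Under the trimmed mean of M-values 23 (26.0%) and 1 (16.1%) were. Scaled to the class total, 9 were higher (background 5.31%) and 5 lower (49.2%). Pfkl (1.06), G6pdx (0.91), Pgk1 (0.78), Pgam1 (0.69), Pkm (0.67), Gapdh (0.64), Hk3 (0.60), Gpi1 (0.60) and Ldha (0.60) were the 9. Ldhb (−2.52), Hk2 (−1.18), H6pd (−1.04), Pfkfb3 (−0.88) and Rpia (−0.75) were lower. Slc2a1 had 14.8 CPM in PYMT and 10.9 CPM in Wild Type, a log2 ratio of 0.45 whose interval, −0.07 to 1.01, spans 0. In this class 7.56% of PYMT and 31.6% of Wild Type cells held at least 2 UMIs of Csf1r and Ccr2, and the 13 monocyte markers summed to 2002 CPM in PYMT and 3473 CPM in Wild Type. Without those cells 7 of 30 genes were higher (12.9% of all genes) and 4 lower (23.7%). Pkm (0.51), Gpi1 (0.49), Ldha (0.48), Gapdh (0.39), Hk3 (0.22) and Rpia (−0.41) then no longer passed, Ldhb stood at −1.75, Pfkl at 2.75 and Slc2a1 at 0.83. Under 1% Camp the Wild Type class has 56 cells and 229891 UMIs, so its values are loose. Here 7 of 30 genes were higher (background 18.6%) and 5 lower (30.5%). Under the median of ratios 11 (24.8% of all genes) and 5 (23.0%) were. Under the trimmed mean of M-values these were 19 (37.2%) and 5 (13.1%). Slc2a1 there rested on 483 PYMT and 3 Wild Type UMIs.

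Genes of the set differed in both directions between Camp classes of the PYMT library. Between neutrophils with under 1% and with at least 4% Camp, 9 of 32 genes were at least 1.5-fold higher (background 26.7%) and 11 lower (20.7%). The share of higher genes was near that of all 7874 genes, and the medians were −0.01 for the 32 genes and 0.05 for all. Both glucose transporters, both Pfkfb genes, Slc16a3, Taldo1 and Pygl were among the higher. Slc2a1 had 48.3 CPM in Camp-low, 14.8 CPM in intermediate and 8.27 CPM in Camp-high cells, a log2 ratio of 2.55 for low over high (2.29 to 2.81). Slc16a3 had 229, 115 and 82.7 CPM along the same order (1.47), Taldo1 1617, 850 and 661 CPM (1.29), Pfkfb4 85.5, 51.9 and 39.8 CPM (1.10), and Pfkfb3 22.9, 10.4 and 10.3 CPM (1.15). Pygl had 408 CPM in Camp-low and 267 CPM in Camp-high cells (0.61), Slc2a3 154 and 96.0 CPM (0.69), Aldoc 4.90 and 0.514 CPM (3.25), and Ldhb 44 and 42 UMIs (1.03). The Ldhb value was −0.10 with stricter classes, 0.14 with thinned cells and 0.16 without neutrophils that held monocyte UMIs. With thinned cells Slc2a3 (0.46) and Aldoc (0.39) did not pass either. Under the 4 other scalings Pygl ran from 0.31 to 0.56 and passed under none, and Slc2a3 ran from 0.38 to 0.63.

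The lower genes included all 3 hexokinases, both enzymes that build glycogen and 3 of the 4 non-oxidative pentose phosphate genes. Gys1 had 5.00 CPM in Camp-low and 24.7 CPM in Camp-high cells (−2.30, interval −2.75 to −1.88), and Rpe had 65 and 581 UMIs (−2.20). Tkt had 470 and 976 CPM (−1.05), so that transketolase and transaldolase differed in opposite directions along Camp. Gbe1 (−1.31), H6pd (−1.26), Hk2 (−1.18), Rpia (−0.94), Pgam1 (−0.92), Pgls (−0.84), Hk3 (−0.72) and Hk1 (−0.62) made up the rest. Gapdh (0.24), Eno1 (0.23), Ldha (−0.01), Aldoa (0.15), Pfkl (0.10), Pfkp (−0.01) and G6pdx (−0.17) were among the 12 genes within 1.5-fold. Median depth was 4059 UMIs per cell in Camp-low and 11556 in Camp-high PYMT cells, and cycling cells were 0.535% and 17.2%. With cells thinned or cycling cells left out, the counts of higher and lower genes in PYMT stayed within 1.5 times. In the Wild Type library the same split gave 5 higher (background 25.6%) and 6 lower (16.2%) of 31 genes, from 56 Camp-low cells. Under the trimmed mean of M-values it gave 4 higher (17.1% of all genes) and 12 lower (23.8%). Slc16a3 had 122 CPM in Camp-low and 54.9 CPM in Camp-high cells (1.15, interval 0.55 to 1.69), Taldo1 1140 and 672 CPM (0.76), and Pgam1 174 and 302 CPM (−0.79). The Pfkfb genes, higher in Camp-low PYMT cells, were not higher here, with 2 and 376 UMIs for Pfkfb3 (−0.68, interval −3.73 to 1.19) and 7 and 941 UMIs for Pfkfb4 (−0.19, interval −1.51 to 0.86). Camp set these classes, and the cells of 1 library are not replicates.

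**Figure D4:**
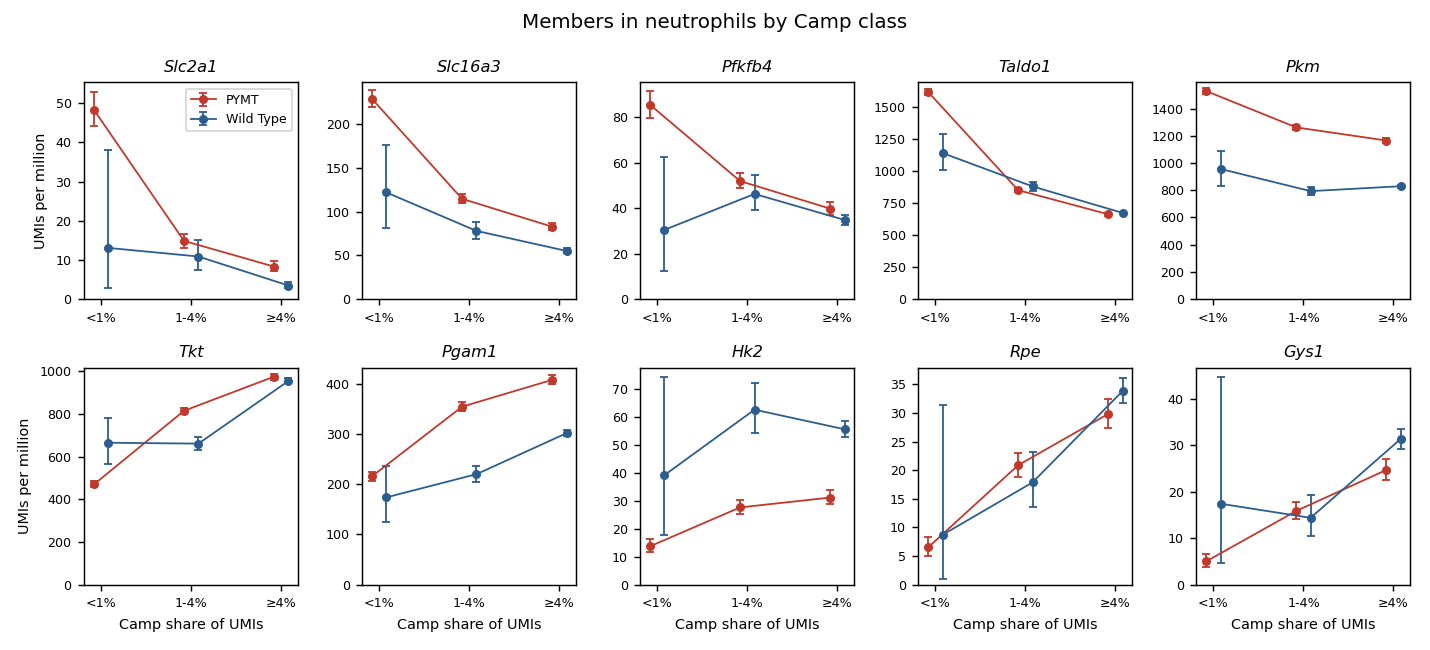
CPM of 10 genes in neutrophils with under 1%, 1 to 4% and at least 4% Camp, in PYMT and Wild Type; bars are exact 95% Poisson intervals. In PYMT Slc2a1, Slc16a3, Pfkfb4, Taldo1 and Pkm are highest in Camp-low cells and Tkt, Pgam1, Hk2, Rpe and Gys1 in Camp-high cells; Wild Type Camp-low bars are wide because that class holds 56 cells.

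Monocytes had 11 of 31 genes at least 1.5-fold higher in PYMT (background 7.84%) and 1 lower (9.06%). Their median was 0.36 against 0.01 for all genes. The 2 counts were the same under the trimmed mean of M-values (8.73% and 8.16% of all genes) and the median of ratios (7.65% and 9.37%). Besides the 5 lower-glycolysis genes, Pgd, Pygl and Gys1 above, the higher genes were Aldoa with 627 CPM in PYMT and 407 CPM in Wild Type (0.63), Gpi1 with 491 and 319 CPM (0.62), and Ldha. Hk2 was the lower one. Pfkp came near with 26.2 and 38.2 CPM (−0.54). S100a8, whose share of UMIs helped set both classes, stood at 4.07% of its neutrophil level in PYMT monocytes and 2.78% in Wild Type ones, while Gapdh stood at 59.7% and 46.3%. Slc2a3, with 9.80 CPM in PYMT and 10.3 CPM in Wild Type monocytes, was at 8.22% and 9.61% of the neutrophil level. The makeup of the class differed between the libraries as well. Of the 13 monocyte markers, F13a1 was higher in PYMT with 527 CPM in PYMT and 291 CPM in Wild Type (0.86), and Cx3cr1 with 120 and 253 CPM (−1.08), Ace with 41.5 and 83.2 CPM and Treml4 with 63.6 and 110 CPM (−0.79), which mark nonclassical monocytes, were lower. The myeloid progenitor list summed to 239 CPM in PYMT and 42.1 CPM in Wild Type, the neutrophil list to 3954 and 2699 CPM, the B cell list to 281 and 618 CPM, and the dendritic list to 127 and 275 CPM, with every gene of these lists detected in both. Without cells also in the B cell class 10 of 30 genes were higher (8.77% of all genes) and 1 lower (7.77%). With stricter classes 9 (10.0%) and 1 (7.91%) were. The part of the monocyte kinds in these values was not tested.

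B cells gave 2 of 27 genes higher (background 9.85%), Slc2a1 and Pfkl, and 2 lower (7.43%), Hk2 and Ldhb. Under the median of ratios 0 were higher (8.08% of all genes) and 2 lower (8.86%). Pfkl had 24.6 CPM in PYMT and 16.3 CPM in Wild Type (0.59, interval 0.01 to 1.21), and Ldhb had 9.68 and 22.1 CPM (−1.19, interval −1.82 to −0.56). Hk2 and Ldhb had higher levels in monocytes than in B cells, and cells also in the monocyte class were 6.16% of PYMT and 18.9% of Wild Type B cells. Without cells of 2 classes, 5 of 25 genes were higher (12.9% of all genes) and 0 lower (4.19%). Hk2 (−1.02) and Ldhb (−1.28) were then no longer counted because they had under 50 UMIs. Erythroid transcripts summed to 2471 CPM in PYMT and 13.2 CPM in Wild Type B cells. Without cells holding at least 2 such UMIs 3 of 27 genes were higher (10.2% of all genes) and 2 lower (7.55%).

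**Figure D5:**
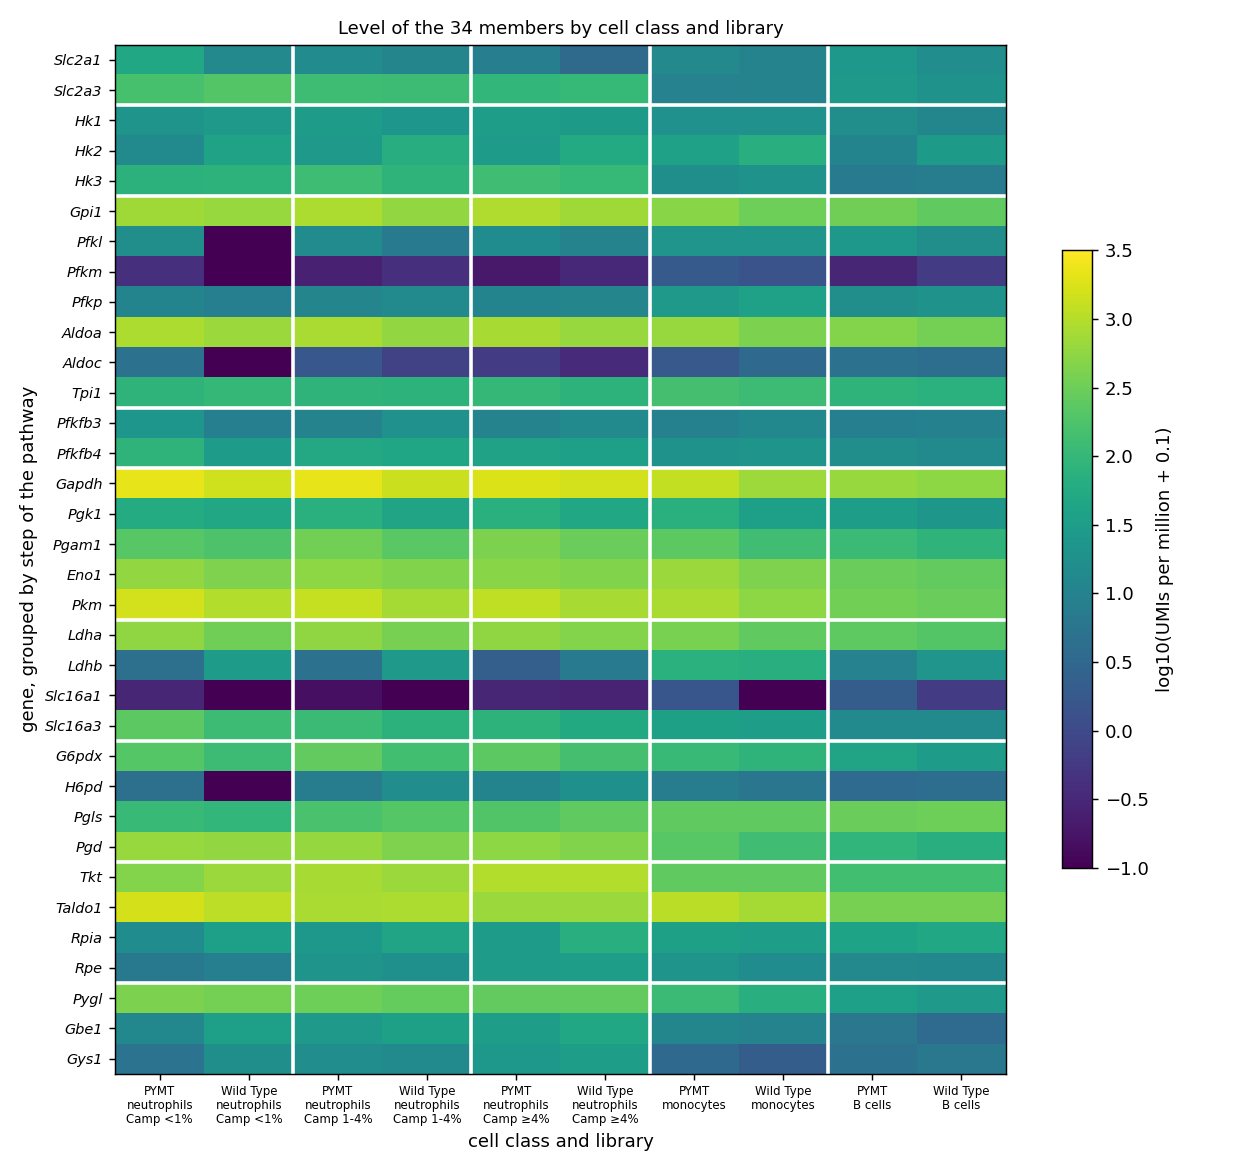
Level of each of the 34 genes (rows, grouped by pathway step) as log10 of CPM plus 0.1, in 3 neutrophil classes, monocytes and B cells of each library (columns, PYMT left of Wild Type). Slc2a3, Hk3, Tkt, Pgd and Pygl are brighter in neutrophils and Ldhb in monocytes, in both libraries.

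Between cell types of 1 library the set also differed. In PYMT 14 of 32 genes were at least 1.5-fold higher in neutrophils than in monocytes (background 10.4%) and 4 lower (70.8%), and in Wild Type 19 of 31 (14.2%) and 5 (60.7%). The all-gene medians were −1.29 in PYMT and −0.86 in Wild Type. Under the median of ratios 29 were higher and 1 lower in PYMT, where 32.6% and 33.0% of all genes were. In Wild Type these were 26 and 2 (29.1% and 28.2%). The trimmed mean of M-values gave 30 and 1 in PYMT (34.4% and 31.4%) and 26 and 2 in Wild Type (35.0% and 23.4%). Slc2a3 (3.61 in PYMT, 3.38 in Wild Type), Hk3 (2.77, 2.35), Gys1 (2.35, 3.84), Tkt (1.67, 1.90), Pgd (1.45, 1.77) and Pygl (1.45, 1.97) had the higher neutrophil levels, and Ldhb (−4.34, −2.89) and Pfkp (−1.27, −1.74) the higher monocyte levels. The Pfkp value in PYMT lay near the all-gene median of −1.29, and in Wild Type it lay below the median of −0.86. For Slc2a1 the ratio was 0.56 in PYMT and −1.24 in Wild Type. UMI counts of 3′ ends carry no length scaling, so the sums and isozyme shares above are of UMIs and depend on how well each gene's 3′ end was captured.

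Other genes of these pathways were counted in neutrophils from lists, and the counts are to be read against 7.11% higher and 42.6% lower over all genes, with a median of −0.47. Of 23 other glycolysis genes, 12 were measured, 3 higher and 4 lower, with a median of −0.39. Slc2a6, another transporter of the glucose family, had 27.1 CPM in PYMT and 7.04 CPM in Wild Type (1.95, interval 1.74 to 2.16). Eno3, the muscle enolase, had 2.65 and 5.82 CPM (−1.14), Tigar, a fructose bisphosphatase, 1.70 and 3.39 CPM, and Minpp1, a phosphatase, 1.74 and 3.46 CPM (−0.99). Of 28 other genes of glycogen and glucose phosphates, 19 were measured, 2 higher and 8 lower, with a median of −0.55, so the lower share is near that of all genes. Ppp1r3d, which brings protein phosphatase 1 to glycogen, had 28.7 CPM in PYMT and 9.77 CPM in Wild Type (1.55, interval 1.37 to 1.74), and Pgm1, a phosphoglucomutase, had 32.1 and 14.7 CPM (1.13). Pgm2l1 had 18 and 57 UMIs (−2.33) and Pygb, the brain-type phosphorylase, 44 and 70 UMIs (−1.34). Of 8 other pentose phosphate genes 4 were measured, 0 higher and 1 lower, Prps2 (−1.17). Of 13 genes of pyruvate entry into mitochondria 8 were measured, 0 higher and 2 lower, Mpc2, a subunit of the pyruvate carrier, with 201 CPM in PYMT and 352 CPM in Wild Type (−0.81), and Pdk1, with 31 and 30 UMIs (−0.62).

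Of 20 further genes known as hypoxia companions, 15 were measured in neutrophils, 3 higher and 4 lower, with a median of −0.02 against −0.47 over all genes, of which 7.11% were higher and 42.6% lower. Ankrd37 had 7.14 CPM in PYMT and 0.658 CPM in Wild Type (3.44, interval 2.79 to 4.17), and Bnip3, a mitophagy receptor, 15.4 and 7.60 CPM (1.02). Egln1, a prolyl hydroxylase that marks hypoxia-inducible factors for destruction, had 1.49 and 5.30 CPM (−1.83), and Vegfa, an angiogenic factor, 4.10 and 7.57 CPM (−0.89). In monocytes 3 of 14 were higher (background 7.84%) and 1 lower (9.06%), with a median of 0.08 against 0.01 over all genes. They were Ndrg1 with 41.5 CPM in PYMT and 17.3 CPM in Wild Type (1.26), Ankrd37 (1.09) and Bnip3 (0.61) on one side and Egln1 (−0.70) on the other. Gyg, the protein that primes glycogen, had 252 CPM in PYMT and 116 CPM in Wild Type monocytes (1.12, interval 0.97 to 1.26). These monocyte genes, and Eno1b above, were named after their values were seen.

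Cells outside every class, 984 in PYMT and 606 in Wild Type, had 3 of 31 genes higher (background 8.72%) and 6 lower (12.2%). Slc2a1 had 19.3 CPM in PYMT and 6.60 CPM in Wild Type there (1.55, interval 1.07 to 2.05), and Hk2 had 22.9 and 62.4 CPM (−1.44, interval −1.70 to −1.20). Neutrophil markers summed to 42527 CPM in PYMT and 54710 CPM in Wild Type in these cells, and erythroid transcripts to 9776 and 41.2 CPM. Their part in these values was not tested.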

How the data were processed

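Libraries were made with 10x Genomics Chromium 3′ chemistry from sorted, pooled spleen cells. Per the labels' protocols, sequencing averaged 48488 reads per cell. The submitters' processing notes name Cell Ranger 2.1.0 and the build mm10. The deposited files hold raw UMI counts per gene and cell, 9155 cells and 73435307 UMIs for PYMT and 5491 cells and 42542700 UMIs for Wild Type. The lowest cells held 2502 and 2752 UMIs.

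Of the deposited cells, 5 of PYMT had under 200 genes or over 10% mitochondrial UMIs and were dropped. UMIs were summed per library and class (Python 3.11.15, numpy 2.4.6, scipy 1.17.1, pandas 2.3.3) and scaled to the class total as CPM, with exact Poisson intervals. Ratios have exact conditional 95% intervals. Shares have exact binomial ones. A gene entered a comparison with at least 50 UMIs in sum, and was called at 1.5-fold. A count of 0 was set to 3 UMIs, as a bound. No p-value can be had from 1 library per group. Doublets stayed in, and an alternative left out the cells most like simulated doublets (671 PYMT, 241 Wild Type; scikit-learn 1.9.0). Genes and lists were chosen with earlier results of these data known. All 34 genes are described where they pass 50 UMIs. Of each other list, up to 4 genes with the largest ratios past 1.5-fold are named. Positions are from GENCODE M21 (GRCm38). Tested on simulated sums with 100 genes changed 1.5-fold, the method found the direction of 83% in neutrophils (9927 genes), 71% in monocytes (9031 genes) and 62% in B cells (7627 genes). With 1 library per condition, spread between mice or libraries could not be part of the simulation. These shares are thus no measure of accuracy for differences between the conditions. The ratios were recomputed under 16 other choices of scaling, cell filter, class rule, depth and threshold, and 2 more, leaving out cells with erythroid UMIs and neutrophils with monocyte UMIs, were chosen after seeing the data.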

Additional observations from a re-analysis of the deposited data

Results flagged for a closer look

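Rpe, the ribulose phosphate epimerase, differed in direction between monocytes and neutrophils when all neutrophils were pooled. Its log2 ratio of PYMT over Wild Type was −0.57 in neutrophils (−0.70 to −0.45, 21.5 against 32.0 CPM) and 0.45 in monocytes (0.04 to 0.88, 21.1 against 15.5 CPM). Under the trimmed mean of M-values the neutrophil value was −0.12 and under the median of ratios −0.10. Within Camp classes it was −0.18 at 4% Camp or more and 0.22 at 1 to 4%. Under 1% Camp it was −0.42, on 2 Wild Type UMIs, and none of the 3 Camp classes passed 1.5-fold. Rpe was lower in Camp-low than in Camp-high PYMT cells (−2.20). The part of the Camp mix in the pooled value was not tested. With cells thinned to 1000 UMIs the monocyte value was −0.28, so the difference in direction does not hold there. The difference between the classes was not tested, since each condition is 1 library.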

How the results depend on the processing

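No paired analysis was possible because each condition is 1 pooled library and the labels give no replicate numbers that pair them, and for the same reason no replicate could be left out. Of 4410 single-gene values under the alternatives, 3674 stayed within the counting interval of the reported value. Among ratios past 1.5-fold, 6 changed sign, and the other 730 values lay outside that interval, some of them smaller ratios that also changed sign. The cause was not tested. With cells thinned to 1000 UMIs, Slc2a1 (−0.10) and Pfkfb3 (−0.58) turned negative in the Camp-low comparison of PYMT with Wild Type, Gys1 (−0.67) in monocytes, and Pfkfb3 (1.30) and Rpe (0.53) turned positive between Wild Type Camp classes, all on few UMIs. With stricter classes Ldhb between PYMT Camp classes was −0.10.

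In the neutrophil comparisons of PYMT with Wild Type the counts of genes changed with scaling, while in monocytes they stayed at 10 or 11 higher and 1 lower under the 4 other scalings. Percentages in brackets, here and below, are the shares of all genes in that direction under the same setting. With the trimmed mean of M-values, 20 were higher and 4 lower in neutrophils, 19 higher in Camp-low, 23 higher and 1 lower in Camp-intermediate and 17 higher and 2 lower in Camp-high cells, and 12 were lower between Wild Type Camp classes. With the median of ratios these were 20 and 4, 11 higher, 22 and 2, 17 and 2, and 11, and 0 were higher in B cells. Without S100a8, S100a9 and Camp in the total, 14 were higher (8.47%) in Camp-intermediate cells and 10 lower (19.6%) between Wild Type Camp classes. Without the 50 most abundant genes, 19 were higher (13.8%) and 3 lower (27.4%) in Camp-intermediate cells. In B cells 1 was then higher (9.20%), and between Wild Type Camp classes 11 were lower (22.2%). Equal weight per cell gave 5 higher (5.84%) in Camp-intermediate cells and 2 lower (9.28%) in monocytes.

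At 2-fold, 3 were higher and 4 lower in neutrophils, 3 higher in Camp-low, 1 and 3 in Camp-intermediate, 1 and 2 in Camp-high cells, 1 and 0 in monocytes, 0 higher in B cells, 6 lower between PYMT Camp classes, and 3 and 2 between Wild Type ones. Thinning left fewer genes measured, and 3 of 21 were lower (18.9%) in Camp-low cells. Of 23 in Camp-intermediate cells 4 were higher (8.39%) and 2 lower (28.2%), and of 29 in Camp-high cells 2 (4.97%) and 3 (22.8%). In monocytes 7 of 22 were higher (11.1%), and of 15 in B cells 1 was higher (14.9%) and 0 lower (5.68%). With at least 10 UMIs, 2 of 34 were lower (13.1%) in monocytes and 4 of 33 higher (14.2%) in B cells. With at least 200 UMIs, of 16 in B cells 0 were higher (5.98%) and 0 lower (4.18%). In Camp-low cells 0 of 22 were then lower (22.1%), and between Wild Type Camp classes 3 of 29 higher (21.8%). The stricter cell filter gave 1 of 27 higher (9.82%) in B cells, and leaving out cells of 2 classes 5 of 25 higher (12.9%) and 0 lower (4.19%) there. Without cycling cells 0 of 27 were higher (10.4%) in B cells and 2 of 30 lower (8.99%) in monocytes. Without cells with erythroid UMIs 3 of 28 were lower (30.7%) in Camp-low cells and 2 of 30 (9.49%) in monocytes. Without simulated doublets 3 of 28 were lower (31.9%) in Camp-low cells. Camp limits of 2% and 6% gave 4 (3.28%), and stricter classes 5 (16.2%), higher of 31 in Camp-intermediate cells. No cell filter and leaving out neutrophils with monocyte UMIs moved no count by more than 1.5 times. Depth limits the Wild Type Camp-low class (56 cells) and B cells most.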
